A study of Homo sapiens with 30 samples.

Results

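HT-CTCF cells are HCT116 cells, a human colorectal carcinoma line, in which both copies of CTCF carry a HaloTag. The data described here are 6 poly(A) RNA-seq libraries of these cells, out of 30 libraries in the series. They were chosen by their labels: 3 libraries treated for 1 day with 10 µM of a DNMT1 inhibitor (DNMT1i, named GSK3482364 in the methods for RNA and GSK3484862 elsewhere in the study) and 3 treated for 1 day with 0.1% DMSO, all without HaloPROTAC3. The sample titles, the treatment labels and the study's methods give 1 day for these libraries, whereas a protocol text that the series' DNMT1i samples share gives 3 days, and the titles were followed. HaloPROTAC3 is a compound that sends HaloTag-CTCF for degradation, and in its place both groups received DMSO vehicle beforehand, so CTCF was present throughout. The study isolated its knock-in lines as single-cell clones, so the results are those of 1 such line. The replicates are separate cultures. The question the comparison addresses is which genes respond to the first day of DNMT1 inhibition while CTCF is present. It was set beside the same treatment with HaloPROTAC3 (6 libraries) and beside wild-type HCT116 cells treated for 3 days (6 libraries).

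DNMT1 is the maintenance methyltransferase that copies CpG methylation from the parental to the daughter strand after replication, and UHRF1 brings it to hemimethylated sites. When it is inhibited, methylation is diluted as cells divide. Germline genes, the silent alleles of some imprinted genes and CpG island genes that colorectal cancers have hypermethylated are the classes best known to be held off by methylation. CTCF is an insulator and loop anchor protein that does not bind some of its sites when they are methylated.

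The 6 libraries held between 4243092 and 7271323 gene counts each. The labelled cell type was checked against epithelial, blood and fibroblast markers. Of 15 colon epithelial markers 11 were above 1 CPM (counts scaled to library size) in DMSO, led by KRT8, KRT18 and KRT19, while the differentiation markers CDX1 and LGALS4 had 0 counts in all 6 libraries. The summed level of the 15 ranged from 4033 to 4072 CPM with DNMT1i and from 3648 to 4413 CPM with DMSO. Erythroid and myeloid markers summed to at most 3.34 CPM in any library, and PTPRC, GATA1 and ALAS2 were at 0. DMSO replicate 1 stood apart from the other libraries. Genes with GC-rich transcripts read low in it: with genes split into 4 equal bins by transcript GC content, the median log2 deviation of the highest bin minus that of the lowest was -0.38 in this library and between -0.003 and 0.15 in the other 5. Where a named gene below lost its call without this library, that is said beside it.

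One day of DNMT1i raised more genes than it lowered. Of 12690 tested genes, 170 were higher and 20 lower when a change of more than 0.5 on the log2 scale and an adjusted p under 0.05 were required (edgeR). These are 1.34% and 0.158% of the genes tested. Without a size limit 251 genes rose (1.98%) and 64 fell (0.504%). The median log2 fold change was 0.86 among the 170 higher genes and -0.61 among the 20 lower genes, against -0.002 over all tested genes. In all 170 every DNMT1i library lay above every DMSO library, a separation that 9.18% of all tested genes also showed. A separation in the other direction was shown by 10.8% of tested genes and by all 20 lower genes. Both sets were picked by their values in these libraries, so their medians and their separation are a description only. The lower count moved most with single libraries, to 11, 8 and 12 without DNMT1i replicate 1, 2 or 3 and to 11 without DMSO replicate 2, while the higher count ranged from 115 to 224. Without DMSO replicate 1, 141 genes were higher and 16 lower, and 121 of the 170 were called again. With a GC correction for each library, 131 of the 170 were called again.

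**Figure D1:**
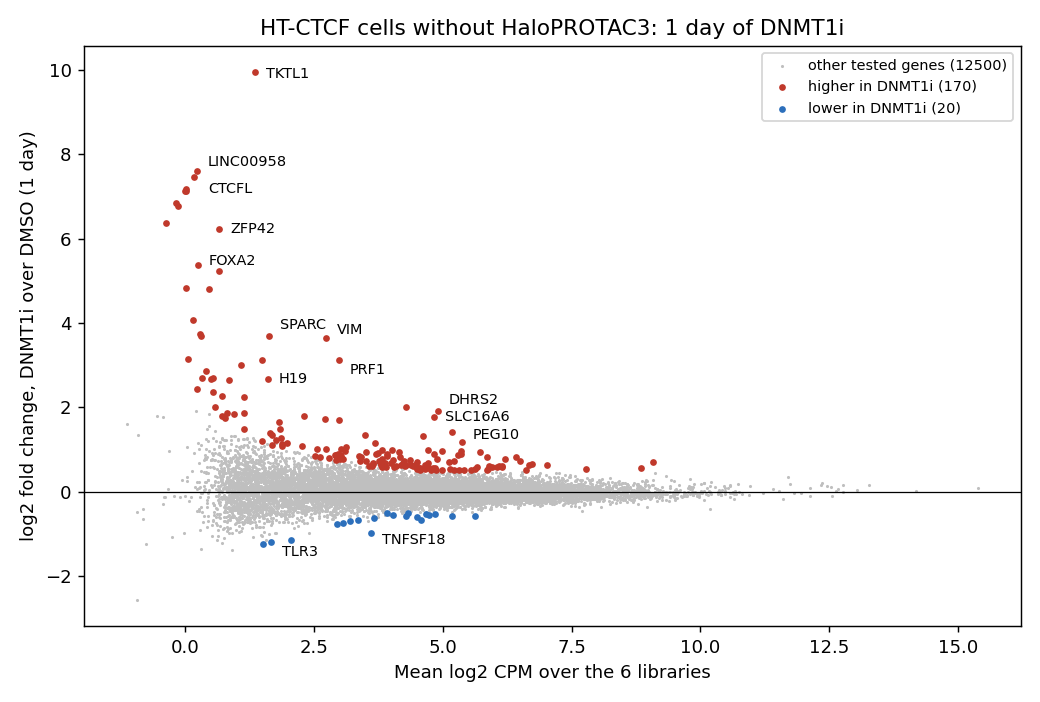
Log2 fold change of DNMT1i over DMSO at 1 day (y axis) against mean log2 CPM over the 6 libraries (x axis), 1 point per gene, with 170 genes higher (red), 20 lower (blue) and the other tested genes in grey. The large increases sit at the left, among genes with little or no RNA in DMSO, and no gene called lower fell by more than 1.24 on the log2 scale.

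The largest increases were among genes with little RNA in DMSO. Of the 116 tested genes with a mean below 1 CPM in DMSO, 36 were called higher (31%), with a median log2 fold change of 3.42 (3.14 with genes that had no DMSO count set to their lower bound). Such genes passed the count filter mostly through the treated libraries and could be called only with a large increase, so both their share and the relation of size to starting level follow in part from the filter and are a description only. The share was 1.43% of genes between 1 and 10 CPM, 1.13% between 10 and 100 CPM and 0.201% above 100 CPM. Of the 170, 33 rose by more than 2 on the log2 scale. Of these 33, 7 (21.2%) lay on chromosome X, against 3.28% of all tested genes, and 6 (18.2%) were lncRNAs, against 4.36%. Their median level in DMSO was 0.202 CPM, so the filter bears on these shares as well. All 33 were called again without DMSO replicate 1 and with the GC correction, whereas of the 137 genes with smaller increases 88 and 98 were. The 137 had a median transcript GC content of 58.1%, the 33 had 49.5% and all tested genes had 47.9%, and the part of GC content in the smaller increases was not tested beyond that correction.

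For 9 genes, none of the 3 DMSO libraries held a count and all 3 DNMT1i libraries did. TKTL1 (chrX:154295795-154330350, plus strand), a transketolase-like gene, was the clearest, with 134, 110 and 92 counts in the DNMT1i libraries. Against a floor of 3 counts over the DMSO group this is at least 102-fold higher. The next by summed counts were LINC00958, a lncRNA gene (21, 20 and 24 counts), and CTCFL (21, 24 and 15 counts), at least 19.8-fold and 18.2-fold higher. CTCFL (chr20:57495966-57525652, minus strand), also called BORIS, is the testis paralog of CTCF and shares its zinc fingers. PNMA5, a paraneoplastic antigen family member, had 26, 12 and 12 counts, and the cancer-testis antigens MAGEA4 and MAGEB1 had 19, 17 and 12 and 24, 11 and 13. The other 3 genes were MAEL, which works in piRNA-guided transposon silencing in the germline, MAGEC1 and the neuronal deubiquitinase gene UCHL1, with bounds down to 8.51-fold. Of the 9, 5 are on chromosome X. MAGE genes have near-identical copies between which reads could be split, so the values of single members are uncertain.

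Several more were nearly silent in DMSO. ZFP42 (chr4:187995771-188005046, plus strand), which encodes the pluripotency marker REX1, read 6.24, 5.38 and 7.08 CPM with DNMT1i against 0, 0 and 0.199 CPM with DMSO. From 106 counts against 1 its ratio was 96.7 (95% counting interval 17 to 3854). FOXA2, a pioneer factor of endoderm, read 3.94, 2.41 and 3.88 CPM against 0, 0 and 0.199 CPM, a ratio of 53.8 (9.29 to 2161). The groups were far apart for both genes. TEX13C, a testis-expressed X-linked gene, had 93 counts against 2 and a ratio of 42.4 (11.4 to 355). The adhesion gene SDK2 had 40 against 1, the antisense lncRNA PROSER2-AS1 70 against 2 and the muscle ring-finger gene TRIM55 42 against 2. TDRD12, another piRNA pathway gene, had 48 counts against 3, and AFAP1-AS1 had 46 against 3. AFAP1-AS1 shares 5135 exonic bases with genes on the opposite strand, so its reads cannot be told from theirs where strand was not used in counting.

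The promoters of the largest increases are shown because CpG methylation acts at these letters. They are the first 6 of the named genes with the largest increases that have an entry in the RefSeq promoter table (GRCh38.p14). LINC00958, FOXA2, TEX13C and SDK2 are named only. Each runs from 250 bases before to 50 bases after the start site, 5′ to 3′ on the gene's strand, with every CG in capitals. TKTL1 is at chrX:154295545-154295844 (plus), CTCFL at chr20:57525603-57525902 (minus) and PNMA5 at chrX:152994067-152994366 (minus). MAGEA4 is at chrX:151912224-151912523 (plus), ZFP42 at chr4:187995521-187995820 (plus) and PROSER2-AS1 at chr10:11894661-11894960 (minus).
TKTL1: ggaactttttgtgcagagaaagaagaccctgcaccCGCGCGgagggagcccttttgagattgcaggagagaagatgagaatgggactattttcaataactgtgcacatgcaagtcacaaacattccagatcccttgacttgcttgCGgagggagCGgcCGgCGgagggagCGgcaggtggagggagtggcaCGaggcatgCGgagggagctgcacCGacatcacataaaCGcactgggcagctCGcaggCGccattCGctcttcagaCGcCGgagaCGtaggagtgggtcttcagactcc
CTCFL: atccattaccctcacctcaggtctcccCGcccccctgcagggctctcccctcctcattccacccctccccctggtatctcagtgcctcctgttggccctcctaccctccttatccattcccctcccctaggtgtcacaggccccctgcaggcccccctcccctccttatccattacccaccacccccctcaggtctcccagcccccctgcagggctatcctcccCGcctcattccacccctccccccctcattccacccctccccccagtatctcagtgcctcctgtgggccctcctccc
PNMA5: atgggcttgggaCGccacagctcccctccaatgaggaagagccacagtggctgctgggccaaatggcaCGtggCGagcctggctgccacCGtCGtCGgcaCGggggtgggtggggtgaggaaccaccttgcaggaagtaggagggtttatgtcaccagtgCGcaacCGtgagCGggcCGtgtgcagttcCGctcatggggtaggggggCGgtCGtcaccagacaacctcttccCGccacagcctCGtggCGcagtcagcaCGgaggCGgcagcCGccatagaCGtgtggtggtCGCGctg
MAGEA4: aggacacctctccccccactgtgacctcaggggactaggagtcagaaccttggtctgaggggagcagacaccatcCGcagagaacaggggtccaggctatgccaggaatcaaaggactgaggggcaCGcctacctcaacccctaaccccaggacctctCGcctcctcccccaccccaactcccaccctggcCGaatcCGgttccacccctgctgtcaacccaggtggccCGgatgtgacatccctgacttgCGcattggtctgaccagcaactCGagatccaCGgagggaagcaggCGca
ZFP42: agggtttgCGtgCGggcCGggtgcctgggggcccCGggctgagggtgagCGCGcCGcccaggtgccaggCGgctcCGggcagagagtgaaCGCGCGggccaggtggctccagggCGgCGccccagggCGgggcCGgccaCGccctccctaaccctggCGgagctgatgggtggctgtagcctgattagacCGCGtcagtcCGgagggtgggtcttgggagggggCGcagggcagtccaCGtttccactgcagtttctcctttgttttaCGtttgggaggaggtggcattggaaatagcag
PROSER2-AS1: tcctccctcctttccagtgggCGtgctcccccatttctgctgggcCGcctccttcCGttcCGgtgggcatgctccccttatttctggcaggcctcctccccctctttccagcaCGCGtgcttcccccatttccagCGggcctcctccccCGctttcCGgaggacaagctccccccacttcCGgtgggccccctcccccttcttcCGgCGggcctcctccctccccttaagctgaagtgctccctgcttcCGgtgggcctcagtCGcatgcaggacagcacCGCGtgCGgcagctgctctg
The 6 differed in CpG content. CTCFL held 2 CG in this window, an observed to expected ratio of 0.100, and MAGEA4 held 10 (0.354). PROSER2-AS1 held 17 (0.552), TKTL1 18 (0.743), PNMA5 23 (0.710) and ZFP42 24 (0.697). Over the 9689 tested genes with an entry the median was 27 CG and a ratio of 0.852. Of the 105 higher genes with an entry, 68.6% exceeded a ratio of 0.6, against 85.7% of all. For the 21 with an increase above 2 on the log2 scale the share was 52.4%, and for the 71 tested genes below 1 CPM in DMSO it was 56.3%, a group that overlaps the 21. Motifs were searched on both strands. TCCCGC, an E2F-type site, was in 49.5% of the promoters of higher genes and 43.9% of all, the E-box CACGTG in 7.62% and 10.4%, and CAGGGGGC, part of the CTCF core motif, in 6.67% and 6.25%. Of the 6 printed, the CTCFL promoter holds the CTCF core letters and the PNMA5 promoter holds both other motifs.

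The smallest p-values among genes with RNA in DMSO belonged to genes of varied function, among them a transporter, an enzyme and a filament protein. SLC16A6, a monocarboxylate transporter, read 51.6, 50.2 and 52.6 CPM with DNMT1i against 14.9, 16.8 and 14.1 CPM with DMSO, a log2 fold change of 1.76 ± 0.11 (SE, n = 3 per group, edgeR adjusted p = 1.7e-12). DHRS2, a dehydrogenase/reductase, read 63.1, 56.7 and 52.1 CPM against 13.7, 14.9 and 17.9 CPM (log2 fold change 1.91 ± 0.12). VIM, the mesenchymal intermediate filament, read 22.1, 19.8 and 23.3 CPM against 1.24, 1.56 and 2.39 CPM (3.65 ± 0.23). In each of the 3 the groups were separated by several times the spread within them. PRF1, which encodes the pore-forming protein of cytotoxic lymphocytes, read 23.5, 19.5 and 21.9 CPM against 2.90, 2.25 and 2.39 CPM (3.12 ± 0.21). NXT2, an mRNA export factor, rose by 1.41 ± 0.13 on the log2 scale. Of leukocyte genes checked beside PRF1, PTPRC was at 0 counts in all 6 libraries and LAPTM5 had 6 counts with DNMT1i and 1 with DMSO. VIM shares 1275 exonic bases with genes on the opposite strand.

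**Figure D2:**
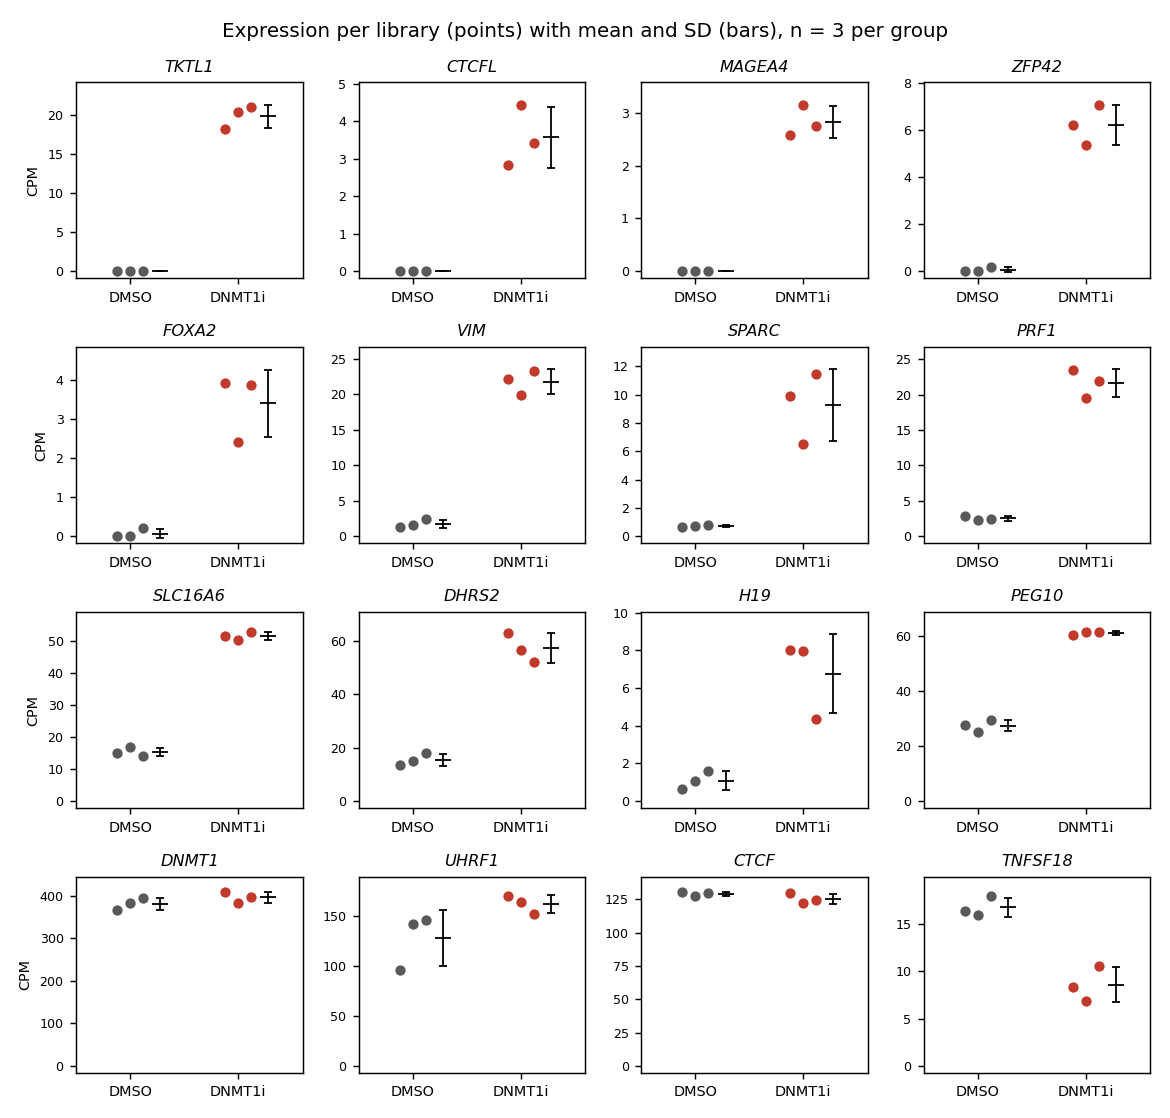
Expression in CPM (y axis, linear, from 0) of 16 genes in the 3 DMSO (grey) and 3 DNMT1i (red) libraries, each point 1 library, with the mean and SD beside them. TKTL1, CTCFL and MAGEA4 are at 0 in every DMSO library, DNMT1 and CTCF overlap between groups, and the lower value of DMSO replicate 1 is visible for UHRF1.

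The list used for the germline and cancer-testis class had 77 genes, of which only 14 had enough counts to be tested. Like the other lists, it was chosen with earlier results of these data known, so its counts are a description. Of the 14, 6 rose and 0 fell, beside 1.98% and 0.504% of all tested genes. The 6 were TKTL1, CTCFL, MAGEA4, MAEL, MAGEC1 and TDRD12. By DESeq2, which was run without this count filter and could test members beyond the 14, 10 rose. Over the other alternatives, the run without a count filter among them, 4 to 14 of the members tested in each rose. The median log2 fold change of the 14 was 0.70. Members enter the test mainly when they are high in 1 group, so the other 63 are given as sums. Together they read 22.6, 26.3 and 29.0 CPM in the DNMT1i libraries and 4.51, 3.50 and 4.79 CPM in the DMSO libraries. The lowest DNMT1i library was thus well above the highest DMSO library. Of the 63, 32 had counts in DNMT1i libraries only, 2 in DMSO libraries only and 9 in none. The same shares over all untested genes are not given here. Genes with a count numbered 21913, 21223 and 20191 in the DNMT1i libraries and 19793, 19711 and 19858 in the DMSO libraries. Untested clustered protocadherins also summed higher in every DNMT1i library, while untested interferon-stimulated and imprinted genes overlapped. Whether the gain is particular to this list was not tested. By counts, and so chosen after their values were seen, TDRD1, a piRNA pathway gene, had 36 against 0, the cancer-testis antigen MAGEC2 28 against 0 and the germ cell RNA-binding gene DAZL 21 against 0. GCNA, a germ cell nuclear protein outside the list and chosen after its values were seen, rose from 0.828, 0.346 and 0.597 CPM to 4.61, 5.01 and 4.57 CPM.

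Of 17 tested imprinted genes 2 rose, H19 and PEG10, and 0 fell, beside 1.98% and 0.504% of all tested genes. H19 (chr11:1995166-2004552, minus strand) is a maternally expressed lncRNA next to a CTCF-bound imprinting control region. It read 8.01, 7.97 and 4.34 CPM with DNMT1i against 0.621, 1.04 and 1.59 CPM with DMSO, a log2 fold change of 2.67 ± 0.35 (edgeR adjusted p = 6.59e-06). PEG10, a paternally expressed retrotransposon-derived gene, rose from 27.8, 25.3 and 29.5 CPM to 60.4, 61.7 and 61.5 CPM (1.17 ± 0.11). The PEG10 libraries agreed closely within each group, while H19 varied within the DNMT1i group. The median log2 fold change of the 17 was -0.06, and MEG3, too low to test, had 5 counts with DNMT1i and 1 with DMSO. FAM50B, an imprinted gene outside the list that was chosen after its values were seen, had 32 counts against 3, a ratio of 9.73 (3.04 to 49.6). Its call was lost with DESeq2.

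Of 22 tested genes known as hypermethylated in colorectal cancer 5 rose and 0 fell. These were VIM, SPARC, DUSP6, UCHL1 and TWIST1, and the median of the list was 0.12. Over all tested genes 1.98% rose and 0.504% fell. UCHL1, SPARC and TWIST1 read below 1 CPM in DMSO, so they passed the count filter mostly through the treated libraries. SPARC, a matricellular glycoprotein, read 9.91, 6.49 and 11.4 CPM with DNMT1i against 0.621, 0.692 and 0.796 CPM with DMSO (log2 fold change 3.68 ± 0.33). DUSP6, the phosphatase that switches off ERK, read 277, 262 and 250 CPM against 177, 189 and 184 CPM (0.53 ± 0.07). TWIST1, a transcription factor of epithelial to mesenchymal transition, read 2.31, 2.41 and 2.97 CPM against 0.207, 0.519 and 0.398 CPM (2.66 ± 0.51). The 25 untested members summed to 142 counts with DNMT1i and 61 with DMSO.

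Single epithelial and mesenchymal genes rose, while most tested members of both lists did not pass. Over all tested genes 1.98% rose and 0.504% fell. Of 13 tested colon epithelial genes 4 rose and 0 fell: the tight junction genes CLDN4 and CLDN3, the epithelial transcription factor ELF3 and the keratin KRT20, with log2 fold changes of 0.42, 0.81, 0.57 and 2.0. Without DMSO replicate 1, where CLDN3 and KRT20 lost their calls, 2 of the 13 rose, and over all alternatives 1 to 4 did. CLDN3 lost its call with the GC correction (adjusted p = 0.0605). The median of the 13 was -0.01, and the abundant members did not pass: KRT8 averaged 1624 CPM with DNMT1i and 1691 CPM with DMSO, KRT18 985 and 1085 CPM, and EPCAM 276 and 280 CPM. Of 9 tested fibroblast and mesenchymal genes 2 rose, VIM and TWIST1, and 0 fell. The 7 fibroblast markers checked above, led by COL1A1, summed to between 16.3 and 20.4 CPM with DNMT1i and between 12.9 and 15.7 CPM with DMSO, with DCN and LUM at 0 in all 6 libraries.

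Several other genes that rose are given here, chosen singly after their values were seen and not as a class. HAS3, a hyaluronan synthase, read 74.8, 71.6 and 69.2 CPM with DNMT1i against 39.97, 40.7 and 33.4 CPM with DMSO (log2 fold change 0.93 ± 0.11). TGM2, a crosslinking transglutaminase, rose by 0.86 ± 0.11. ITGB4, the hemidesmosome integrin, read 588, 555 and 534 CPM against 324, 414 and 406 CPM (0.56 ± 0.08), with DMSO replicate 1 the lowest. LGALS1, the secreted lectin galectin-1, rose by 0.62 ± 0.09, the receptor gene EGFR by 0.39 ± 0.08 and the water channel gene AQP3 by 1.72 ± 0.23. The simple keratin KRT7 rose by 1.78 ± 0.29 and the hair keratin KRT81 by 2.87 ± 0.55. All of these kept their calls in every alternative run. DLC1, a RhoGAP and tumour suppressor gene, read 8.69, 9.08 and 3.66 CPM against 0.828, 0.519 and 1.19 CPM.

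A pair of linker histone genes moved in opposite directions. H1-10, a replication-independent member chosen after its values were seen, rose by 0.54 ± 0.12 on the log2 scale but lost its call without DMSO replicate 1. H1-4, a replication-dependent member, read 6.79, 7.05 and 7.08 CPM with DNMT1i against 9.32, 12.8 and 11.7 CPM with DMSO (-0.70 ± 0.19, edgeR adjusted p = 0.0383). H1-4 was the only member of the 20 tested replication-dependent histone genes to pass, and it lost its call in 9 of 19 alternatives. Their median was -0.24 and 3 of the 20 were lower at an unadjusted p below 0.05. Replication-dependent histone mRNAs lack poly(A) tails, so poly(A) selection captures few of them.

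Decreases were modest in size. FAM86B1 read 1.76, 1.67 and 1.37 CPM with DNMT1i against 3.73, 3.98 and 3.98 CPM with DMSO (log2 fold change -1.24 ± 0.31, edgeR adjusted p = 0.0251). The FAM86 family has near-identical copies, so this value is uncertain. TLR3, the endosomal receptor for double-stranded RNA, read 1.49, 1.67 and 2.74 CPM against 4.97, 5.02 and 2.99 CPM (-1.19 ± 0.32), with the nearest libraries almost touching. CSPG5, a neural proteoglycan, fell by 1.14 ± 0.29 on the log2 scale, E2F5 by 0.74 ± 0.20, MANEAL by 0.68 ± 0.13 and the ubiquitin ligase gene RNF128 by 0.68 ± 0.18. TNFSF18, which encodes the ligand GITRL, read 8.28, 6.86 and 10.5 CPM against 16.4, 15.9 and 17.9 CPM (-0.98 ± 0.18). Of the 8 named by size, TNFSF18 and MANEAL kept their calls in all 19 alternatives and the other 6 lost theirs in at least 4. Without DMSO replicate 1 the calls of FAM86B1, TLR3 and E2F5 were lost. ERVMER34-1, an endogenous retroviral envelope gene, fell by 0.58 ± 0.10 and CA2, a carbonic anhydrase, by 0.60 ± 0.14. ERVMER34-1 kept its call in all 19 alternatives and CA2 in 15. Both, like the next 3, were chosen after their values were seen. Among decreases smaller than 0.5, the neighbours CAV1 and CAV2, which encode the coat proteins of caveolae, fell by 0.36 ± 0.07 and 0.46 ± 0.08, and KITLG, the ligand of KIT, fell by 0.41 ± 0.08.

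Few innate immune genes passed at 1 day, when 1.98% of all tested genes rose and 0.504% fell. Of 25 tested interferon-stimulated genes 1 rose and 0 fell. This was IRF7, the interferon regulatory factor, which read 7.33, 4.82 and 6.17 CPM with DNMT1i against 1.86, 3.29 and 0.597 CPM with DMSO (log2 fold change 1.65 ± 0.35), and it lost its call without DNMT1i replicate 1. The median of the 25 was -0.05. The 17 untested members summed to 7.98, 7.08 and 4.95 CPM with DNMT1i and 3.86, 3.50 and 5.42 CPM with DMSO, which overlap. Of 8 tested nucleic acid sensing genes TLR3 fell and 0 rose, and TLR3 lost its call in 9 of 19 alternatives, among them DESeq2, the 6 libraries alone and the fit without DMSO replicate 1. No antigen presentation gene passed among 15 tested by edgeR (3 had an unadjusted p below 0.05, and 0 passed with DESeq2). TAP2, a peptide transporter subunit, was near the threshold (edgeR adjusted p = 0.0552). It fell with the GC correction, without DNMT1i replicate 2 and without DMSO replicate 2 of the HaloPROTAC3 group. Apart from these lists, of 52 clustered protocadherin genes 2 were tested and 0 passed with either tool, with 0 at an unadjusted p below 0.05. The 50 untested members summed to 3.71, 5.31 and 4.24 CPM with DNMT1i and 3.00, 2.62 and 1.67 CPM with DMSO, without overlap. Every DNMT1i library also held more genes with a count than any DMSO library. The same sums over all untested genes are not given, so the separation is a description only.

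Stress and signalling lists contributed scattered members, beside 1.98% of all tested genes that rose and 0.504% that fell. Of 35 tested immediate-early genes 5 rose and 1 fell. DUSP6, JUN, JUND, EGR1 and KLF2 rose by 0.43 to 0.64 on the log2 scale, and MYC fell from 479, 502 and 502 CPM to 432, 386 and 382 CPM (-0.29 ± 0.07). JUND and KLF2 lost their calls with the GC correction, and EGR1 and KLF2 lost theirs without DMSO replicate 1, where 4 of the list rose, 1 of them another member. Over all alternatives 2 to 6 rose. Of 25 tested hypoxia and glycolysis genes 4 rose and 0 fell: NDRG1 by 0.81 ± 0.09, the glucose transporters SLC2A3 and SLC2A1 by 0.74 and 0.27, and PFKP by 0.30. SLC2A1 and PFKP lost their calls without DMSO replicate 1, and over all alternatives 1 to 5 of the list rose. Of 25 tested integrated stress response genes 3 rose, ATF5 (0.89 ± 0.11), ALDH1L2 and AARS1, and 0 fell. AARS1 lost its call in 11 of 19 alternatives, the fit without DMSO replicate 1 among them, and ALDH1L2 in 5, with DESeq2 among them, so that 1 to 3 of the list rose. WARS1 fell with DESeq2 and with the GC correction. Of 28 tested p53 targets 2 rose, the stress cytokine GDF15 (0.60 ± 0.10) and the ribonucleotide reductase subunit RRM2B (0.34 ± 0.09), and 0 fell. RRM2B lost its call in 8 of 19 alternatives, with DESeq2 among them. The median of the 28 was 0.11, and 8 had an unadjusted p below 0.05, all higher. Of 19 heat shock genes HSPA1A rose, from 12 counts to 44 in all, and since HSPA1B is a near-identical copy its value is uncertain. HSPA1A lost its call in 9 of 19 alternatives, with DESeq2 among them, and HSPA1B fell with the GC correction. Of the 19 heat shock genes, 4 had an unadjusted p below 0.05, 3 of them lower. All DNMT1i libraries lay below all DMSO libraries for 8 of the 19 and above for 1, beside 10.8% and 9.18% of all tested genes. TIPARP fell among 17 xenobiotic and oxidative stress genes.

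Cell cycle and housekeeping lists held few calls, where 1.98% of all tested genes rose and 0.504% fell. The G2/M phosphatase CDC25B rose among 29 tested G2/M genes (0.28 ± 0.07) and the clamp loader subunit RFC3 fell among 34 S phase genes (-0.35 ± 0.09), and both lost their calls in at least 6 of 19 alternatives, RFC3 also without DMSO replicate 1. Of 77 cytosolic ribosomal protein genes 0 passed in edgeR or DESeq2, with 7 at an unadjusted p below 0.05. Of 13 mitochondrially encoded mRNAs 0 passed with either tool, with 2 at an unadjusted p below 0.05, and of 23 cholesterol synthesis genes 0 passed with either, with 8. With the GC correction 2 ribosomal protein genes fell and 2 cholesterol synthesis genes rose. Among 10 Wnt antagonist and target genes 0 passed in edgeR, 4 had an unadjusted p below 0.05 and 1 fell by DESeq2, and among 4 erythroid and myeloid genes 0 passed with either tool, with 1 unadjusted. Of 21 snoRNA host and nuclear noncoding genes NEAT1, the paraspeckle scaffold, rose from 77.5, 79.1 and 90.0 CPM to 125, 117 and 136 CPM (0.62 ± 0.09).

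**Figure D3:**
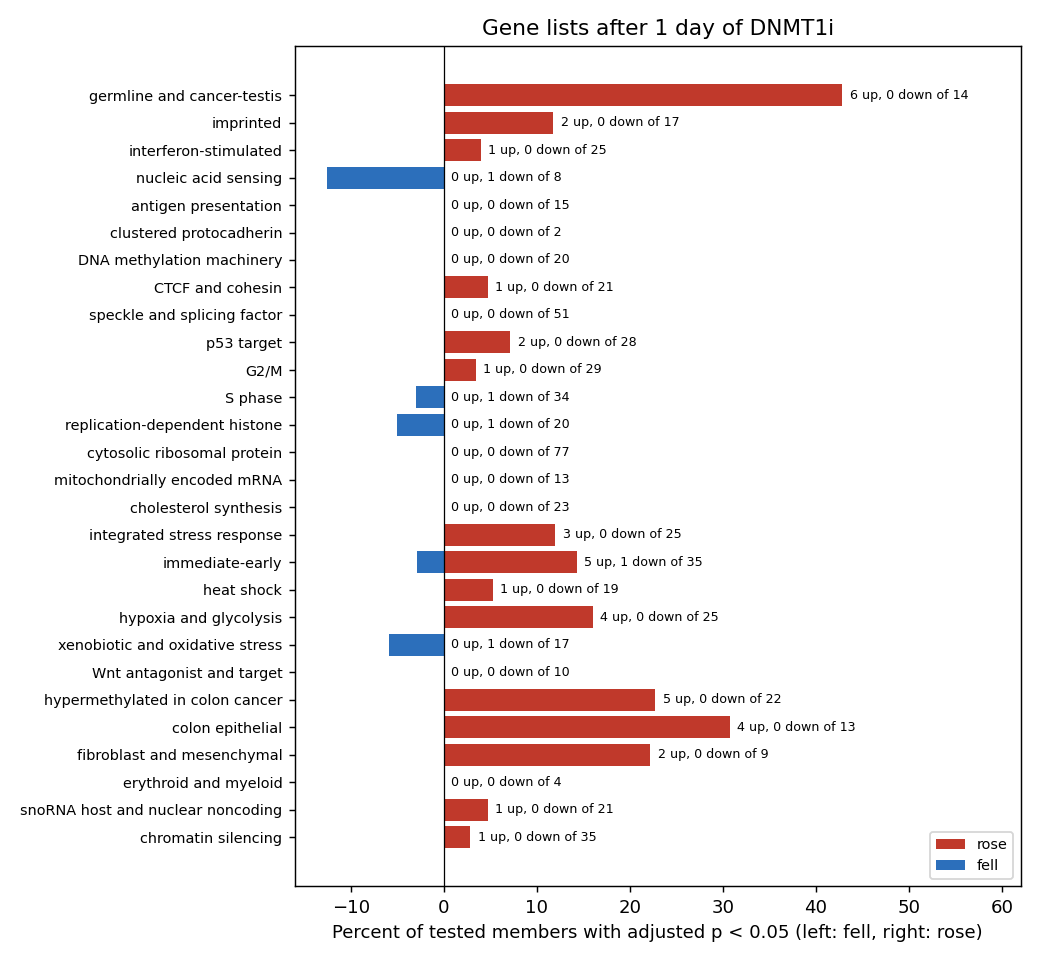
Percent of the tested members of 28 gene lists that rose (red, right) or fell (blue, left) at an adjusted p below 0.05, with counts beside the bars. Over all tested genes 1.98% rose and 0.504% fell, the germline and cancer-testis list shows 6 of 14, and the share of short lists turns on 1 or 2 genes.

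Genes of the methylation machinery were near the threshold at most. Of 20 tested genes of this list 0 passed in edgeR, beside 1.98% of all tested genes that rose and 0.504% that fell. Of the 20, 4 had an unadjusted p below 0.05 and 0 passed with DESeq2. DNMT1, the target of the compound, read 408, 383 and 397 CPM with DNMT1i against 366, 383 and 394 CPM with DMSO (log2 fold change 0.07 ± 0.07). UHRF1 read 170, 165 and 152 CPM against 96.1, 142 and 146 CPM (0.35 ± 0.11, edgeR adjusted p = 0.0783), with DMSO replicate 1 the lowest. It passed in 4 of 19 alternatives, among them the 6 libraries alone and the fit without DMSO replicate 3. ZBTB38, a methyl-CpG-binding zinc finger gene, had 0.31 ± 0.09 (adjusted p = 0.0545) and passed with the GC correction. Over all alternatives 0 to 2 of the list rose. The de novo enzymes DNMT3A and DNMT3B had log2 fold changes of -0.35 ± 0.16 and 0.10 ± 0.11, and TET1, TET2 and TET3, which oxidise methylcytosine, had -0.04, -0.01 and -0.06. Among 35 chromatin silencing genes ATF7IP, a partner of the H3K9 methyltransferase SETDB1, rose by 0.39 ± 0.09 and 0 fell. ATF7IP kept its call in 16 of 19 alternatives.

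CTCF RNA was level, at 130, 122 and 125 CPM with DNMT1i and 130, 128 and 130 CPM with DMSO (log2 fold change -0.03 ± 0.07). CTCFL was the only one of 21 tested CTCF and cohesin genes to pass, where 1.98% of all tested genes rose and 0.504% fell. Of 51 speckle and splicing factor genes 0 passed in the edgeR fit or DESeq2, and 4 had an unadjusted p below 0.05. At those shares over all genes, a list of this size would hold few calls. CCNL2, a cyclin of speckles, passed with the GC correction only. The speckle scaffold genes SON and SRRM2 had log2 fold changes of -0.04 ± 0.07 and 0.10 ± 0.08.

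ZNF genes, which encode zinc finger proteins and cluster on chromosome 19, were looked at after several were seen among the increases. Of 138 tested ZNF genes on this chromosome 4 rose (2.9%) and 0 fell, beside 1.98% of all tested genes. Over all chromosomes 5 of 331 rose and 0 fell. The 4 on chromosome 19 were ZNF134, ZNF274, ZNF426 and ZNF550. ZNF550 read 1.90, 2.41 and 2.29 CPM with DNMT1i against 0.207, 0.519 and 0.199 CPM with DMSO. ZNF274, which recruits SETDB1 to other zinc finger genes, read 11.8, 10.6 and 10.7 CPM against 4.56, 6.06 and 5.97 CPM. ZNF426 lost its call with DESeq2 and without replicate 2 of either group.

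With HaloPROTAC3, which removes CTCF, the same treatment was compared in 6 other libraries with their own DMSO controls. Of the 170 genes higher with CTCF present, 82 (48.2%) also rose with HaloPROTAC3 at an adjusted p below 0.05, where 2.86% of all tested genes did. Their median log2 fold change was 0.50 with HaloPROTAC3, beside 0.86 without, and 158 of the 170 were above 0. Since the 170 were picked by their values without HaloPROTAC3, these medians are not a test of the difference. The test of the difference is the interaction of the 2 treatments, which called 34 of 12690 genes (0.268%), 4 of them among the 170 and 0 among the 20 lower genes. NOTCH1, chosen after its values were seen, was 1 of the 4, with 0.60 ± 0.11 without and -0.10 ± 0.11 with HaloPROTAC3 (adjusted p for the interaction = 0.0374). TKTL1, CTCFL and PRF1 did not pass it. TKTL1 and CTCFL had no DMSO count and wide errors (interaction 2.51 ± 1.64 and 2.13 ± 1.88), so the test says little about them. PRF1 had 3.12 ± 0.21 without and 1.59 ± 0.25 with HaloPROTAC3 (interaction adjusted p = 0.0548). GCNA had 3.00 ± 0.42 and 1.23 ± 0.47 (interaction adjusted p = 0.238), and SPARC had 3.68 ± 0.33 and 3.79 ± 0.30.

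The 34 interaction genes were mostly long, or short ribosomal protein genes. In 27 the response was more positive without HaloPROTAC3, with a median exon length of 13998 bases, and in 7 it was more negative, with 2115 bases and 5 ribosomal protein genes among them. The tested genes had a median of 5303 bases. By p the first were MKI67, the proliferation marker (interaction 0.77, adjusted p = 0.00957), PCNT, a centrosome scaffold (0.75), and SOGA1 (0.76), and on the other side RPS13 (-0.58), RPS21 (-0.63) and RPS29 (-0.73). None of these 6 passed in the libraries without HaloPROTAC3, where MKI67 read 0.19 ± 0.09. The count rested on single libraries. It was 0 without DNMT1i replicate 2, without DMSO replicate 2 or without DMSO replicate 3 of the HaloPROTAC3 group, 1 without DNMT1i replicate 1, 12 without DMSO replicate 1 and 238 without DMSO replicate 3. Without DNMT1i replicate 2 or DMSO replicate 1 of the HaloPROTAC3 group it was 20 and 97. Across genes the Spearman correlation of transcript GC content with the log2 fold change was 0.32 without and -0.18 with HaloPROTAC3, over 12673 genes of the same libraries. The part of length and GC content in the interaction was not tested beyond the GC correction, under which 102 genes passed.

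Wild-type HCT116 cells after 3 days showed where the 1 day genes stood later. All 170 were tested there and 115 (67.6%) were also higher, where 14.8% of the genes tested at both times were. These 115 are 3.07% of the 3748 genes higher at 3 days. Of the 33 genes with increases above 2 on the log2 scale at 1 day 32 were higher at 3 days, and of the other 137 genes 83 were (60.6%), while 10 of the 137 were lower. Of the 20 genes lower at 1 day 8 were lower at 3 days (40%), where 17.2% of the genes tested at both times were, and 0 were higher. Time, line, vehicle pretreatment and depth all differ between the 2 data sets, so their parts cannot be told apart.

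The difference between the 1 day and 3 day responses was tested directly. Of the 170 genes 50 had a larger value at 3 days and 36 a larger value at 1 day at an adjusted p below 0.05, where 35.4% of tested genes differed in either direction. The 170 were picked by their 1 day values, so the split between the directions is a description. H19 was at 2.67 ± 0.35 at 1 day and 7.01 ± 0.18 at 3 days (log2 difference -4.31 ± 0.60, edgeR adjusted p = 2.78e-06). VIM was at 3.65 and 6.08, SPARC at 3.68 and 6.90, and DHRS2 at 1.91 and 4.79. GCNA was at 3.00 and 7.79. SLC16A6 was at 1.76 ± 0.11 and 1.89 ± 0.10, with a difference of -0.13 ± 0.16 that did not pass. Genes larger at 1 day included KRT7, at 1.78 ± 0.29 and 0.26 ± 0.09 (adjusted p for the difference = 0.00014). ELF3 and CLDN4 turned, from 0.57 ± 0.13 to -1.58 ± 0.10 and from 0.42 ± 0.09 to -1.13 ± 0.10. CTCF was level at 1 day and fell at 3 days by 0.52 ± 0.07 on the log2 scale, and DNMT3A was at -0.35 ± 0.16 and 0.64 ± 0.11.

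**Figure D4:**
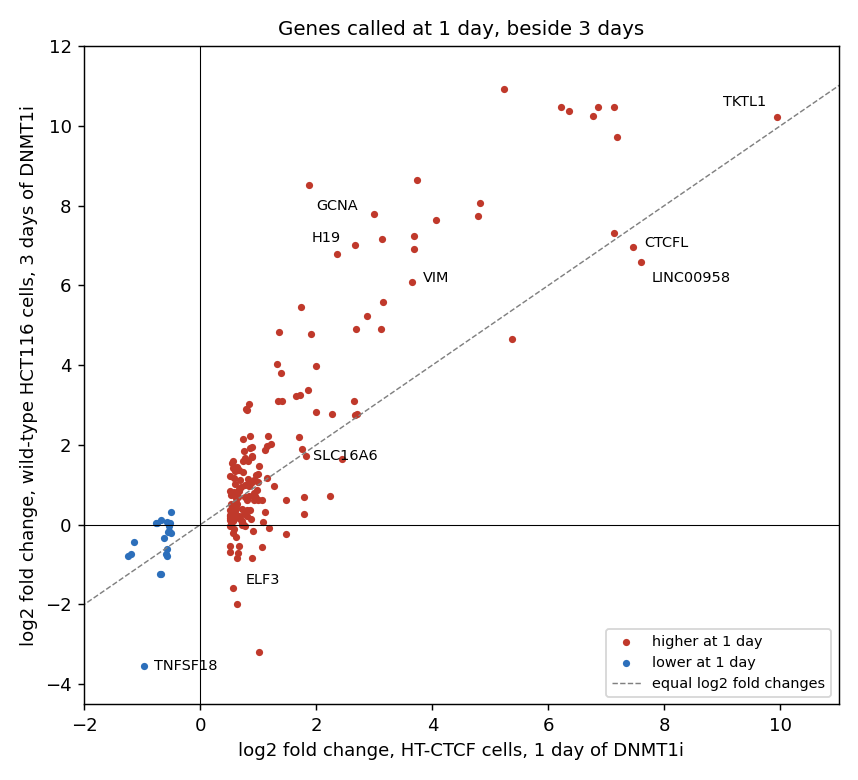
Log2 fold change after 3 days in wild-type HCT116 cells (y axis) against that after 1 day in HT-CTCF cells (x axis) for the 170 genes higher (red) and 20 lower (blue) at 1 day, with a dashed line where both are equal. Most of the large increases lie above the line, TKTL1, CTCFL and LINC00958 lie near it, and 10 of the 170 fall below 0 with a call at 3 days. Values of genes without a DMSO count depend on the prior count and are not bounds.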

How the data were processed

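Poly(A)-selected RNA was measured in 6 libraries of HT-CTCF cells, with 12 more libraries for comparison, grouped by their labels. As described in its methods and in the submitters' notes on processing, the authors removed duplicates by unique molecular identifiers (UMI-tools 1.1.1), trimmed with cutadapt 2.7, aligned to hg38 with STAR 2.6.0 and counted reads per gene with HTSeq, and deposited raw counts for each library without normalization. Whether HTSeq used strand is not stated in the sources used here. The authors' tables of their own comparisons (fold changes and p-values), the exon bin counts and the libraries of other cell lines were not used. No column of per-sample values was left unused in the files read (0 columns).

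Of 60664 genes, 60463 matched GENCODE 44, and gene positions are hg38 and 1-based. Reads placed in no single gene (19.3% to 21.4% of each of the 6 libraries) were left out. Counts were fitted with edgeR 4.0.16 in R 4.3.3 (quasi-likelihood F test, TMM scaling, filterByExpr) over the 12 HT-CTCF libraries in 4 groups, which gave the DNMT1i response without and with HaloPROTAC3 and their interaction. Wild-type cells were fitted on their 6 libraries, and the 1 day minus 3 day difference on 12. P-values were adjusted by Benjamini-Hochberg over all tested genes. Genes are called higher or lower past 0.5 on the log2 scale with an adjusted p under 0.05, and single genes and list members rise or fall with no size limit. CPM are scaled by TMM, except sums over markers and untested genes. SEs are the log2 fold change over the root of F. Folds against 0 counts are bounds against 3 counts over the group, and intervals and floors cover counting error only. P-values measure the spread between 3 cultures per group. The calling script was tested on simulated counts.

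Named genes were the 14 largest positive and 8 largest negative changes and the 8 smallest p among passing genes that have a symbol, groups without overlap and an average log2 CPM not below 0, 6 genes without DMSO counts, up to 4 members of each list, the 6 smallest interaction p, and a set always given. A few genes that these rules pick are not reported here. The 28 lists (922 symbols), the members and the tests were chosen with earlier results of these data known. Promoters were the RefSeq entry nearest each GENCODE gene start. Alternatives were DESeq2 1.42.0, its size factors, no count filter, a replicate block, the 6 libraries alone and leaving out each library. Added after seeing the data was an offset from a lowess curve of each library against the GC content of the longest transcript. List counts in an alternative cover the members that it tested, which can differ from those of the main fit.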

Additional observations from a re-analysis of the deposited data

Results flagged for a closer look

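Tests of a difference between responses picked out the following results. The response to DNMT1i differed with HaloPROTAC3 for 34 genes, and the 1 day response in HT-CTCF cells differed from the 3 day response in wild-type cells for 4849 genes. For the response without minus that with HaloPROTAC3, the log2 difference was 0.77 for MKI67, 0.75 for PCNT, 0.76 for SOGA1, -0.58 for RPS13, -0.63 for RPS21 and -0.73 for RPS29.

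For the 1 day minus the 3 day response, the log2 difference was -5.42 for TEX13C, -4.80 for TDRD12, -4.31 for H19, -3.46 for AFAP1-AS1, -3.20 for SPARC, -2.88 for DHRS2, -2.43 for VIM, -1.77 for PRF1 and -1.68 for NXT2, all higher at both times. It was 2.57 for TNFSF18 and 0.56 for MANEAL, which were lower at both times, and -0.77 for E2F5 and -0.81 for RNF128, which were lower at 1 day and did not pass at 3 days. Among genes that did not pass at 1 day it was 0.50 for UHRF1, -0.99 for DNMT3A, 0.51 for SRRM2 and 0.49 for CTCF.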

How the results depend on the processing

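Leaving out 1 library at a time gave 115 to 224 higher genes, 8 to 24 lower genes, 0 to 238 genes with an interaction, 4110 to 5158 genes with a 1 day to 3 day difference and 3756 to 3946 genes higher at 3 days. DESeq2 gave 135 higher and 8 lower genes and 143 with an interaction, and the 6 libraries alone gave 155 higher and 13 lower. Without the count filter 223 genes were higher and 165 had an interaction, and with the GC correction, added after seeing the data, 144 were higher, 26 lower and 102 had an interaction (156 with the replicate block as well). The causes of these shifts were not tested. Of the 170 higher genes 117 were also called by DESeq2 and 76 in all 19 alternatives, and of the 20 lower genes 8 and 2. No called gene among those named changed direction in these alternatives, while some that did not pass, among them SON, TET1 and TET2, lay on both sides of 0. Same-numbered DNMT1i and DMSO libraries had correlations of -0.13, -0.05 and -0.03 in their deviations, so the numbers were not taken as pairs, and the replicate block gave 156 higher genes, 15 lower and 32 with an interaction. A count of 3 stands for 0.413 to 0.707 CPM at these depths, so genes below 1 CPM have wide counting intervals.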
